A study of Mus musculus with 4 samples.

Results

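The major histocompatibility complex (MHC) of the mouse lies on chromosome 17, and the gene for the zinc finger protein ZFP57 sits at its class I end. The genes described here are the rows of the deposited tables that start between 33.5 and 38.5 Mb of that chromosome (build mm9). For mm9 positions and distances, start means the lower coordinate of a gene, whichever its strand. Zfp57 itself, Pou5f1, Hspa1a, Hspa1b and symbols beginning with Zfp, Rpl or Rps were left out, which removed 7 of 275 rows. The remaining 268 rows, of 26130 in all, carry 267 symbols, since H2-Q2 stands on 2 rows. Position and symbol chose them, with no threshold on expression, although earlier results of these data were known when the rule was set. The outermost members were Actl9 and Olfr136, with at most 0.0198 RPM in any library. Of the rows next outside, Zfp101 was 27.99 against 17.2 RPM in E14 (reads scaled to library size, wild type against knockout) and 24.2 against 15.7 RPM in JB1, and Gm20408 was without reads.

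RNA was sequenced from mouse embryonic stem cells in 4 libraries. E14 is a line of strain 129P2/OlaHsd, and JB1 is a line labelled JF1/B6. Each line was sampled as wild type and as Zfp57-/-, with 1 library per line and genotype. Cells of all groups were grown without feeder cells, in serum with leukemia inhibitory factor (LIF). The labels do not say how Zfp57 was deleted, how many clones were used or how the knockout lines were derived. Values are taken as reads per 1000000 reads of a library total (RPM). Gene length is not accounted for, so a level is compared between libraries and never between genes. A pair of values joined by "against" gives wild type first and knockout second. Fold values are ratios of RPM with 95% exact intervals that cover counting error only, and PCR copies of a molecule cannot be separated without molecular identifiers. The tables of E14 and JB1 were scaled separately, so an order of levels between the lines carries that scaling. Differences are knockout minus wild type on the log2(RPM + 1) scale, which understates changes of genes near or below 1 RPM.

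MHC class I molecules display peptides from inside the cell to T cells and natural killer cells. The classical genes (H2-K1 and H2-D1 here) are broadly expressed, whereas the non-classical genes of the Q, T and M groups have specialised roles. Class II molecules present peptides taken up from outside, mainly on immune cells. Between class II and most class I genes lies the class III interval, rich in complement, inflammatory and housekeeping genes. H2-K1 lies apart, on the other side of class II. Beyond the class I end follows a cluster of olfactory receptors. Embryonic stem cells are known for low surface levels of class I molecules. ZFP57 binds the methylated hexamer TGCCGC at imprinting control regions and recruits the corepressor KAP1.

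In JB1 the measured genes nearest to Zfp57 were lower in the knockout library than in the wild type. The 4 with the largest differences lie on both sides of Zfp57, with only Gabbr1 after it, and their promoters are shown. They are the 250 bases before the start of the first RefSeq entry of each gene (GRCm38.p6, a later build than mm9), printed 5′ to 3′ on the strand of the gene. Capitals mark CpG dinucleotides, the bases at which mouse DNA is methylated. Rnf39 is at chr17:36942801-36943050 on the plus strand. 2410137M14Rik is at chr17:36981238-36981487 and H2-M5 at chr17:36989534-36989783, both on the minus strand. Gabbr1 is at chr17:37045716-37045965 on the plus strand.
Rnf39: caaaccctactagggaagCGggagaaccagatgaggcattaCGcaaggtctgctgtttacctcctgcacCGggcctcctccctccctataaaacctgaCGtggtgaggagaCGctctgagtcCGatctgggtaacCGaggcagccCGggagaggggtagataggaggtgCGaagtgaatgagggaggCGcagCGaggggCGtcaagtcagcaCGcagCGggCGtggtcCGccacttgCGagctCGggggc
2410137M14Rik: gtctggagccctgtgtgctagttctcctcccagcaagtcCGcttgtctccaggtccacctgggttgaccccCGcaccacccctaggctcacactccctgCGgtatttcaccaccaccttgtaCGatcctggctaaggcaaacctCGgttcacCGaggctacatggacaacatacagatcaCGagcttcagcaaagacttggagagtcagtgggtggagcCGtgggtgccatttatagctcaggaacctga
H2-M5: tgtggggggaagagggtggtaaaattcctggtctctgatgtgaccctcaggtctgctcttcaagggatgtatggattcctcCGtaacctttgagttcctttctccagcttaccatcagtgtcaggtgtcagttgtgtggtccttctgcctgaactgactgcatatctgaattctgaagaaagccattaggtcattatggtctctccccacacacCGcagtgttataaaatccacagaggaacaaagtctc
Gabbr1: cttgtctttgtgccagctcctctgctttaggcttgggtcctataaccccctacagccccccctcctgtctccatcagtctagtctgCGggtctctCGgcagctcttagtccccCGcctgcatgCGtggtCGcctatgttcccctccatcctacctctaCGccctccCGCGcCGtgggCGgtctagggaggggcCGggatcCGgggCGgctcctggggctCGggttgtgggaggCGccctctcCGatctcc

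These promoters differed in CpG content. The Rnf39 window holds 18 CpGs and the Gabbr1 window 16, against 8 for 2410137M14Rik and 2 for H2-M5. Among neighbours with smaller JB1 differences, the Znrd1 window holds 23 CpGs and the Ppp1r11 window 5. The median was 6 over 27025 promoters of the same length. None of the 4 printed windows holds the letters TGCCGC on either strand, while the window of Znrd1, which lies between Rnf39 and H2-M5, holds 1, starting 143 bases before the start. The hexamer occurred in 8.59% of all windows and in 11 of the 183 windows matched to members (6.01%). These counts describe letters in these windows only.

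A second pair of windows is shown because H2-T23 was the class I gene with the largest difference shared by both knockout libraries, while the classical class I genes were higher in 1 knockout and lower in the other. H2-T23 is at chr17:36032702-36032951 and H2-K1 at chr17:34000348-34000597, both on the minus strand of GRCm38.p6. Capitals mark GAAANNGAA, a core of interferon-stimulated response elements, and GGGGATTCC, a core of the kappa B site of classical class I genes, each searched on both strands.
H2-T23: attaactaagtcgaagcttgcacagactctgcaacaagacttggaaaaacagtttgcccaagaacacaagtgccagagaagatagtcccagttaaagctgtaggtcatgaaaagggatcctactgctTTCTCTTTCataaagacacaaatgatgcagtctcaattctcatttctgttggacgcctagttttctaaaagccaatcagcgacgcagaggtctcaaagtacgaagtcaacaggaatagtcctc
H2-K1: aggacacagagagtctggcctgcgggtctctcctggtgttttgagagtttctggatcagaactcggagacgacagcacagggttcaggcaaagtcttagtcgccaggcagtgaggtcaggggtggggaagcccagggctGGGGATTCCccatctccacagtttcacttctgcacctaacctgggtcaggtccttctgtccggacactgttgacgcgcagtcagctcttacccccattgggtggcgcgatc

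The H2-T23 window holds 1 match to GAAANNGAA, on the opposite strand and 123 to 115 bases before the start, and none to GGGGATTCC. The H2-K1 window holds 1 match to GGGGATTCC, 111 to 103 bases before the start, and none to GAAANNGAA. Only this order of letters was searched, and an interferon element with its parts in another order would be missed. The lack of a match therefore does not show that a window lacks such an element, and the windows cannot be contrasted on it. H2-D1, the other classical gene, also holds GGGGATTCC, 171 to 163 bases before its start. GAAANNGAA occurred in 7.16% of all windows and in 7.65% of those of members, and GGGGATTCC in 0.218% and 2.19%. The last share is 4 of 183 windows, with H2-K1 and H2-D1 among them. GGGGATTCC was picked as a site of classical class I genes, so its share among members follows in part from that choice.

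Many of the 268 genes were silent. No read was found in any library for 75 of them, 63 others stayed below 1 RPM in every library, and 130 reached 1 RPM in at least 1 library. In E14, 106 were measured at 1 RPM or more in either library, and in JB1 127. The listed genes of the whole tables held 26801865 reads in E14 wild type, 37965626 in its knockout, 47458221 in JB1 wild type and 66849394 in its knockout. A count of 0 allows up to 0.0594 RPM in the shallowest library and 0.0309 RPM in the deepest, taking 3 reads as the limit. Zfp57, the targeted gene, was 135 against 51.8 RPM in E14 and 796 against 42.9 RPM in JB1, lower in both knockouts but not at 0. Of 10 stem cell markers all were measured in each line, with 8 lower in the E14 knockout (summed 3554 against 3241 RPM) and 7 lower in the JB1 knockout (5320 against 4455 RPM). In JB1 Klf4 was 410 against 164 RPM and Utf1 was 61.4 against 170 RPM. Of the fibroblast and feeder markers 4 of 4 measured in JB1 were higher in the knockout (summed 892 against 1288 RPM, nearly all Fn1), and in E14 1 of 3 was higher (566 against 466 RPM), with Dcn without reads in all libraries. The primitive endoderm markers summed to 10.2 against 8.05 RPM in E14 and 37.2 against 47.5 RPM in JB1. In JB1 6 of 7 measured were higher, with most of the rise in Dab2 (20.2 against 29.6 RPM), and Gata4 was lower (6.10 against 2.97 RPM). The immune cell markers summed to 13.9 against 14.3 RPM in E14 and to 20.2 against 27.6 RPM in JB1, with Lyz2 without reads. The part of all these markers in the results below was not tested. In such bulk samples, fewer cells of a type and less RNA per cell cannot be told apart.

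Around Zfp57 the lines differed in what was seen. In JB1, all 7 measured genes that start within 0.1 Mb of the Zfp57 start were lower in the knockout library, with a median difference of −0.85, and in E14 4 of 6 were lower, with a median of −0.05. Over all measured genes the medians were 0.01 in JB1 and 0.02 in E14. The window of 0.1 Mb was chosen after the values were seen. Of the 5 members that differed in JB1 by 1 or more on the log2(RPM + 1) scale, 3 were among these 7 genes, and all 3 of them were lower. Because the window was set with the values known, that count follows in part from the choice. Over all 13132 genes measured in JB1, 2.5% were higher and 1.58% lower by as much, and the 5 members of the whole interval were near these shares.

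**Figure D1:**
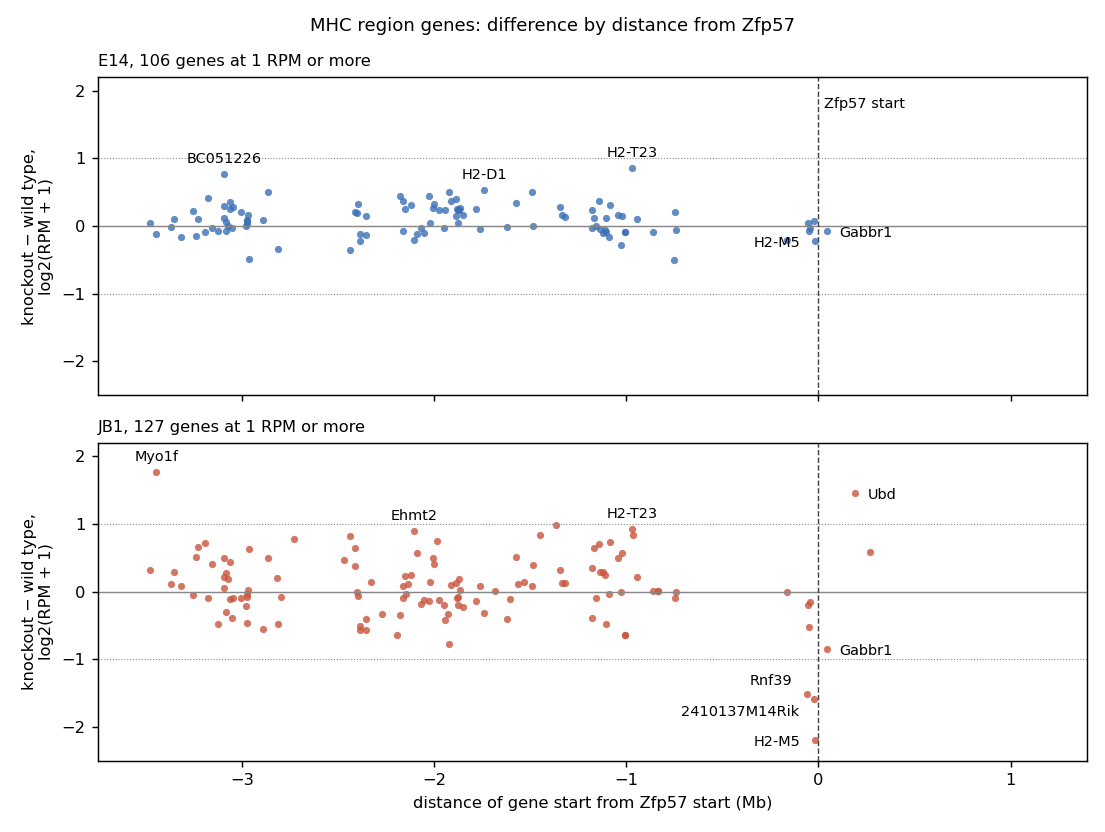
Difference between knockout and wild type (log2(RPM + 1), vertical) against the distance of the gene start from the Zfp57 start (Mb, horizontal), for members at 1 RPM or more in E14 (above) and JB1 (below). Each point is 1 gene from 1 library per genotype, and dotted lines mark a difference of 1 on this scale. Gene starts are lower coordinates, whichever the strand. In JB1 Rnf39, 2410137M14Rik and H2-M5 lie below −1 beside the dashed Zfp57 line, and in E14 no gene reaches the dotted lines.

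H2-M5 (37121006 to 37126482, minus strand, mm9), a non-classical class I gene of the M group, starts, by its lower coordinate, 17.1 kb before Zfp57. It was 36.4 against 30.95 RPM in E14 and 50.3 against 10.2 RPM in JB1. The JB1 knockout was the lowest of the 4 libraries. The ratio in JB1 was 4.93-fold lower (95% interval 4.59 to 5.29) and in E14 1.18-fold lower (1.10 to 1.25). 2410137M14Rik (37114646 to 37118182, minus strand), its neighbour, was 4.54 against 4.81 RPM in E14 and 3.63 against 0.536 RPM in JB1. The first 3 of these libraries lay close together, and the JB1 knockout was 6.77-fold below its wild type (5.00 to 9.31).

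Rnf39 (37079863 to 37084931, plus strand), which encodes a RING finger protein, was 0.357 against 0.297 RPM in E14 and 2.50 against 0.227 RPM in JB1. Here JB1 wild type was the library that stood apart, and the other 3 were all below 0.4 RPM. In JB1 the knockout was 11.0-fold lower (7.05 to 18.05), and the E14 ratio of 1.20-fold lower had an interval of 0.603 to 2.37 that spans no difference. Gabbr1 (37182911 to 37212012, plus strand), a subunit of the GABA-B receptor, lies on the other side of Zfp57. It was 24.5 against 23.1 RPM in E14 and 103 against 56.3 RPM in JB1, 1.82-fold lower (1.76 to 1.89) in JB1. The JB1 knockout remained above both E14 libraries.

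The difference did not follow distance in a simple order. Znrd1, a subunit of RNA polymerase I on the minus strand, starts, by its lower coordinate, 46.8 kb before Zfp57, nearer than Rnf39 at 58.2 kb. Its levels were 20.2 against 19.1 RPM in E14 and 32.6 against 22.4 RPM in JB1, 1.45-fold lower in JB1 (1.37 to 1.54). Ppp1r11, an inhibitor of protein phosphatase 1 that lies next to Rnf39, was 18.8 against 19.3 RPM in E14 and 23.9 against 20.7 RPM in JB1. Znrd1as, transcribed away from Znrd1, was 4.24 against 4.13 RPM in E14 and 15.9 against 14.1 RPM in JB1. These last genes were 1.16- and 1.12-fold lower in the JB1 knockout, so strongly and weakly lower genes alternated along the interval. Trim26, 164 kb away and a tripartite motif ubiquitin ligase, was 43.1 against 43.0 RPM in JB1 and 18.2 against 15.5 RPM in E14.

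**Figure D2:**
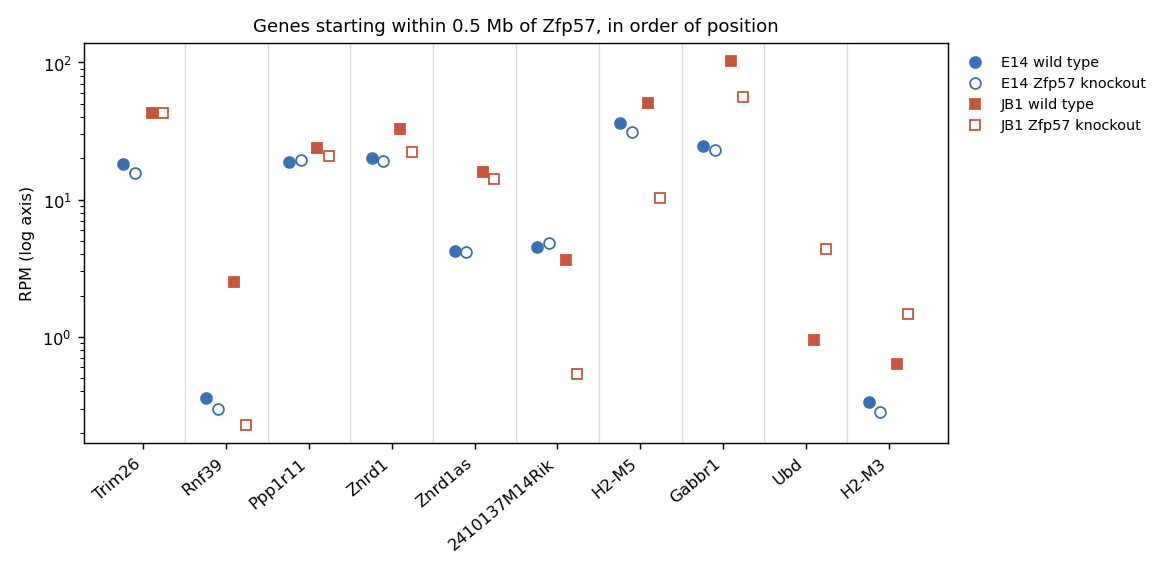
RPM (log axis) of the 10 members that start within 0.5 Mb of Zfp57 and reach 1 RPM in any library, in order of position. Each symbol is 1 library, filled for wild type and open for knockout. Ubd had no reads in E14 and has no E14 symbols. The open JB1 squares of Rnf39, 2410137M14Rik and H2-M5 lie below all other symbols of their genes.

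Beyond Gabbr1 the direction in JB1 was the other one. Ubd, which encodes the ubiquitin-like modifier FAT10, starts 193 kb after Zfp57. It had 0 reads in both E14 libraries and was 0.954 against 4.36 RPM in JB1 wild type and knockout, 4.57-fold higher (3.52 to 6.02). H2-M3, which presents N-formylated peptides, was 0.337 against 0.283 RPM in E14 and 0.636 against 1.46 RPM in JB1, 2.30-fold higher (1.63 to 3.31). Between Gabbr1 and these genes, and from H2-M3 to the end of the interval, lie mostly olfactory receptors. Mog, which encodes a myelin protein and starts 9.58 kb after the Zfp57 start, had at most 0.196 RPM.

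All 46 olfactory receptor genes lie on the far side of Zfp57, where they make up most of the 54 members. No read was counted for any of them in 3 of the libraries, and 4 reads were counted in the JB1 knockout, all in Olfr94 (0.0412 RPM), the receptor gene that follows Ubd. For a single receptor, a count of 0 allows up to 0.0309 to 0.0594 RPM, depending on the library. Only 3 members after Zfp57 reached 1 RPM in any library, so that side says little about the reach of a change.

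The medians did not change in 1 direction with distance. In JB1 8 of 10 measured members under 0.5 Mb were lower (median −0.36). At 0.5 to 1 Mb it was 2 of 8 (0.01), or 5 of 8 when differences were centred on the median of all genes. At 1 to 2 Mb 20 of 46 (0.08), at 2 to 3 Mb 21 of 40 (−0.02) and over 3 Mb 8 of 23 (0.19). In E14 5 of 7 were lower under 0.5 Mb (−0.08), 3 of 6 at 0.5 to 1 Mb (0.03), 13 of 40 at 1 to 2 Mb (0.16), 11 of 30 at 2 to 3 Mb (0.08) and 9 of 23 over 3 Mb (0.06). Neighbouring genes are not independent, so no test was made over these bins. Over all genes measured, 48.5% were lower in JB1 and 46.5% in E14.

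Few members differed by 1 or more on the log2(RPM + 1) scale within a line, which is called 2-fold apart on that scale, and with 1 library per genotype there is no replicate check and no p-value for a line. In E14, 0 of 106 members were at least 2-fold higher and 0 were at least 2-fold lower, where 0.953% and 0.269% of all 12276 measured genes were. In JB1, 2 of 127 were at least 2-fold higher (Myo1f and Ubd) and 3 were at least 2-fold lower (H2-M5, 2410137M14Rik and Rnf39). The shares among all 13132 measured genes were 2.5% and 1.58%, so the count of members over the whole interval was near the background. The JB1 counts depend on the pseudocount: with 0.25 in place of 1 they were 8 and 3, and with 5 they were 0 and 1. By ratio of RPM, with no pseudocount and a rule added after the data were seen, 2 members were at least 2-fold higher in E14 (BC051226 and H2-DMa) and 1 lower (Gm20546), where 2.47% and 0.782% of all measured genes were. In JB1 10 were higher and 6 lower by that ratio, where 5.54% and 2.9% of all measured genes were. The genes this added were at most 6.402 RPM (Notch4) in JB1. Among the 6 are A930015D03Rik and RP24-443D19.4, overlapping rows with the same JB1 values (2.33 against 1.12 RPM), so the count of lower members holds a repeat.

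The effect shared by the lines was tested over all 12644 genes whose mean reached 1 RPM, using limma with cell line and genotype as terms. The lines are the only replication, so each gene has 1 residual degree of freedom, and nothing in the labels says that the cultures were repeated. No gene in the tables was called at an adjusted p under 0.05 (0% of all genes), and so none of the 115 members tested was. The smallest adjusted p of a member was 0.623. At an unadjusted p under 0.05 there were 7 members of 115 (6.09%), 6 of them higher, against 7.95% of all genes. A difference between the lines could not be tested, because each line gives 1 difference.

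Among the class I genes, H2-T23 stood out by the likeness of its change in the lines. It encodes the heavy chain of Qa-1, which presents a leader peptide of other class I molecules to natural killer cell receptors, and lies at 36166718 to 36169800 on the minus strand. It was 5.23 against 10.3 RPM in E14 and 14.2 against 27.9 RPM in JB1. In each line the knockout was above the wild type, by 1.97-fold in E14 (1.71 to 2.28) and also 1.97-fold in JB1 (1.83 to 2.12). Of the members tested it had the smallest unadjusted p in limma, 0.00189 (log2 difference 0.89, SE 0.17), and an adjusted p of 0.623. It overlaps A930015D03Rik on the other strand, which was 1.27 against 1.13 RPM in E14 and 2.33 against 1.12 RPM in JB1, and the sources used here do not say whether counting used strand.

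The classical genes H2-K1 and H2-D1 were both higher in the E14 knockout and both lower in the JB1 knockout. H2-K1 was 9.75 against 11.4 RPM in E14 and 11.5 against 10.6 RPM in JB1. H2-D1 was 8.68 against 13.0 RPM in E14, 1.49-fold higher (1.33 to 1.68), and 14.6 against 11.6 RPM in JB1, 1.26-fold lower (1.16 to 1.38). H2-Q4, a non-classical gene, was 18.1 against 17.9 RPM in E14 and 17.4 against 13.0 RPM in JB1. H2-Q6, of the group that encodes Qa-2, was 35.5 against 45.1 RPM in E14 and 7.09 against 10.5 RPM in JB1. It was higher in both knockouts, by 1.27-fold (1.20 to 1.35) and 1.48-fold (1.33 to 1.66), and both E14 libraries lay above both JB1 libraries.

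**Figure D3:**
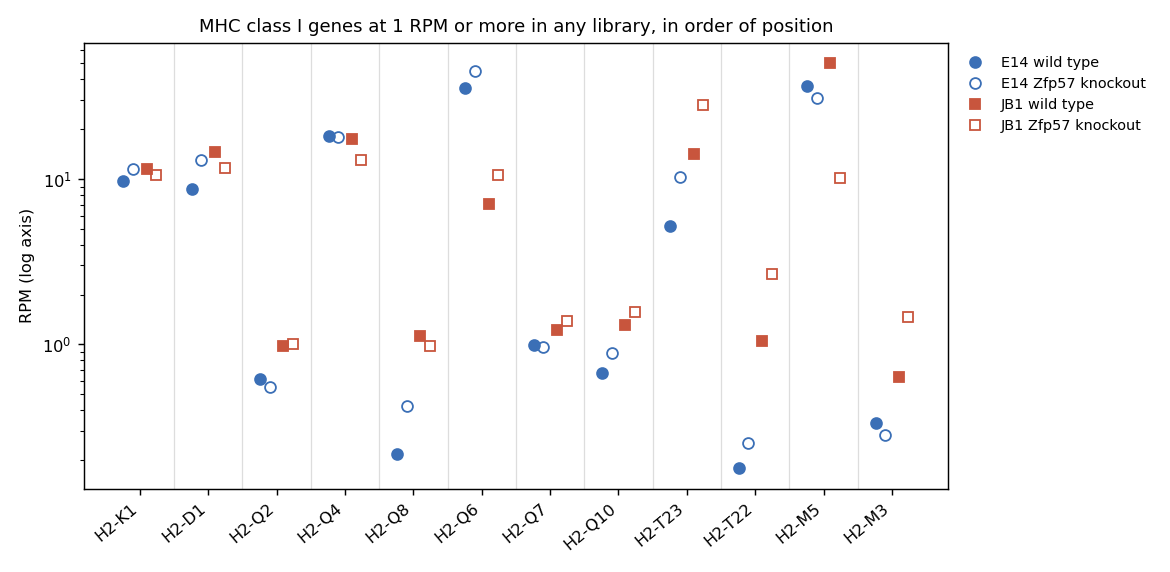
RPM (log axis) of the 12 class I genes that reach 1 RPM in any library, in order of position, with 1 symbol per library, filled for wild type and open for knockout. H2-T23 is higher in the knockout in both lines, H2-M5 is lower in the JB1 knockout, and H2-K1 and H2-D1 keep within 8.68 to 14.6 RPM.

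At lower levels, H2-T22, a gene of the same T group as H2-T23, was 0.178 against 0.255 RPM in E14 and 1.05 against 2.67 RPM in JB1, 2.53-fold higher (1.95 to 3.33). H2-Q2 (its first row), H2-Q7, H2-Q8 and H2-Q10 ranged from 0.218 to 1.57 RPM over the 4 libraries. Of all 26 class I genes 12 reached 1 RPM in some library and 7 had no read in any, 5 of which are H2-M10 genes. Their sum was 118 against 134 RPM in E14 and 124 against 95.9 RPM in JB1. Without H2-M5 it was higher in both knockouts, at 81.9 against 103 RPM in E14 and 73.6 against 85.7 RPM in JB1. In JB1 the rise of H2-T23 alone (14.2 against 27.9 RPM) was larger than that of this sum. H2-K1, H2-D1 and H2-Q4 were lower there, so the higher sum in JB1 does not describe the class I genes in general. Of the non-classical genes, 2 of 4 measured were higher in E14 (median 0.16) and 7 of 10 in JB1 (0.13). Class I genes are near-identical to each other and differ between strains, and reads may be split among them, since the sources used here do not say how reads that map to several places were counted. What part this had, and what part the mapping of JF1 and 129P2/OlaHsd reads to mm9 had, was not tested.

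Genes that load class I molecules were low and did not move together. Tap1, a subunit of the peptide transporter of the endoplasmic reticulum, was 2.16 against 1.49 RPM in E14 and 3.24 against 2.04 RPM in JB1, lower in both knockouts by 1.45-fold (1.10 to 1.92) and 1.59-fold (1.304 to 1.93). Tap2, its partner, was 0.0792 against 0.0990 RPM in E14 and 1.199 against 1.08 RPM in JB1. Tapbp, or tapasin, which bridges the transporter and class I molecules, was 10.3 against 9.72 RPM in E14 and 11.3 against 13.9 RPM in JB1. Psmb9, a subunit of the immunoproteasome, was 0.396 against 0.255 RPM in E14 and 0.954 against 1.24 RPM in JB1. Psmb8, another subunit, was without reads in E14 and at most 0.0619 RPM in JB1.

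The class I pathway outside the interval was not uniform either. Of 12 genes 10 were measured in each line, and 7 were higher in each knockout (medians 0.11 in E14 and 0.41 in JB1). The list also holds Cd74, a class II gene, which was among the 7 higher in JB1 and was not measured in E14. B2m, the light chain of every class I molecule, was 6.26 against 6.72 RPM in E14 and 9.39 against 8.80 RPM in JB1. The endoplasmic reticulum chaperones Canx and Calr were 493 against 593 RPM and 382 against 354 RPM in E14, and 482 against 456 RPM and 299 against 365 RPM in JB1. Pdia3, a thiol oxidoreductase of the loading complex, was 116 against 128 RPM in E14 and 310 against 413 RPM in JB1. Psme1, an activator of the proteasome, was 10.6 against 7.84 RPM in E14 and 21.5 against 29.0 RPM in JB1. By ratio of RPM, Cd74, the class II invariant chain, and Psmb10, an immunoproteasome subunit, were more than 2-fold higher in JB1, at 0.275 against 2.23 RPM and 2.64 against 5.87 RPM.

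Interferon raises class I expression, and 20 of its response genes were looked at. In E14 4 of 8 measured were higher, and Irf9, a subunit of an interferon-activated transcription factor, was 2.02-fold lower by ratio of RPM (6.83 against 3.38 RPM). Irf9 starts at 56222408 on chromosome 14, close to Psme1 (56196960) and Psme2 (56206278). Both were also lower in the E14 knockout, with Psme2 at 7.65 against 3.99 RPM. What part their shared position had was not tested. In JB1 5 of 9 were higher, and Oas1a (2.59 against 6.33 RPM), Bst2 (9.77 against 20.07 RPM) and Ifi35 (0.390 against 1.21 RPM) were more than 2-fold higher by ratio of RPM. Ddx58, the RNA sensor RIG-I, was 13.99 against 13.98 RPM in E14 and 47.3 against 81.4 RPM in JB1. Ifitm3, which blocks virus entry, was 20.9 against 19.8 RPM in E14 and 37.7 against 33.9 RPM in JB1. Stat2, a signal transducer of the interferon receptors, was 3.23 against 2.98 RPM in E14 and 20.9 against 18.9 RPM in JB1. Isg15 and Ifit3 had 0 reads in all 4 libraries.

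Class II genes were barely expressed. Of 9 listed genes 8 had reads, and 1 reached 1 RPM in E14 and 2 in JB1. H2-DMa, a chain of the molecule that loads peptides on class II, was 0.555 against 1.20 RPM in E14 and 1.16 against 2.03 RPM in JB1, higher in both knockouts by 2.17-fold (1.3996 to 3.45) and 1.76-fold (1.35 to 2.31). H2-Aa, a class II alpha chain, was 0 against 0.0283 RPM in E14 and 0.491 against 1.55 RPM in JB1, 3.15-fold higher in JB1 (2.16 to 4.71). H2-Eb1, a beta chain, was 0.0594 against 0.255 RPM in E14 and 0.881 against 0.938 RPM in JB1. Summed over the 9 genes, the level was 0.832 against 2.45 RPM in E14 and 4.39 against 7.43 RPM in JB1.

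The complement and class III immune genes, a list that also holds Ubd, were mostly silent as well, with 3 of 22 measured in E14 and 8 in JB1. All 3 were higher in the E14 knockout and 5 of 8 were lower in the JB1 knockout. Ly6g6e, a lymphocyte antigen 6 family gene, was 6.79 against 10.03 RPM in E14, 1.48-fold higher (1.296 to 1.68), and 17.1 against 9.61 RPM in JB1, 1.78-fold lower (1.64 to 1.95). Nfkbil1, an NF-kappa-B inhibitor-like gene, was 1.902 against 2.45 RPM in E14 and 9.51 against 8.52 RPM in JB1. The complement gene C2 was 0.634 against 0.340 RPM in E14 and 3.11 against 3.42 RPM in JB1. Tnf, a cytokine gene, had 0 reads in all 4 libraries. Trim39, a tripartite motif gene, was 10.7 against 10.3 RPM in E14 and 33.7 against 33.4 RPM in JB1, and Trim15 was at most 0.202 RPM.

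Chromatin and transcription regulators of the interval were all expressed. Of 15 genes, 13 were higher in the E14 knockout (median 0.15), with 2 lower, or 4 lower when centred on the median of all genes. In the JB1 knockout 9 were higher (0.06), and none was 2-fold apart in either line. Ehmt2, which encodes the histone H3 lysine 9 methyltransferase G9a, was 34.5 against 29.9 RPM in E14 and 64.2 against 120 RPM in JB1. It was 1.87-fold higher in JB1 (1.81 to 1.94) and 1.16-fold lower in E14 (1.08 to 1.23). Brd2, a reader of acetylated histones, was 317 against 336 RPM in E14 and 329 against 223 RPM in JB1, 1.47-fold lower there (1.45 to 1.503). Ppp1r10, a nuclear targeting subunit of protein phosphatase 1, was 68.3 against 84.8 RPM in E14 and 43.7 against 73.4 RPM in JB1. It was higher in both knockouts, with a limma log2 difference of 0.52 (SE 0.17, adjusted p = 0.623). Mdc1, a mediator of the DNA damage checkpoint, was 61.6 against 61.8 RPM in E14 and 137 against 128 RPM in JB1. Tcf19, a gene of the G1 to S transition, was 3.47 against 5.35 RPM in E14 and 5.997 against 6.402 RPM in JB1.

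The other genes of known function went both ways, with 31 of 46 higher in the E14 knockout and 25 of 51 in the JB1 knockout. Tubb5, a beta tubulin, was 577 against 625 RPM in E14 and 682 against 1071 RPM in JB1, 1.57-fold higher in JB1 (1.55 to 1.59). Ddx39b, an mRNA export helicase, was 205 against 200 RPM in E14 and 272 against 286 RPM in JB1. Prrc2a, which encodes a proline-rich RNA-binding protein, was 99.01 against 111 RPM in E14 and 385 against 329 RPM in JB1. Dpcr1, a mucin-like gene, was 0.119 against 0.226 RPM in E14 and 1.23 against 3.41 RPM in JB1, 2.78-fold higher in JB1 (2.18 to 3.57). The largest positive difference in JB1 (1.77) was that of Myo1f, a class I myosin at the far end from Zfp57, at 5.05 against 4.60 RPM in E14 and 1.14 against 6.32 RPM in JB1. In JB1 it was 5.54-fold higher (4.37 to 7.09), and the JB1 wild type was the low library.

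Between the lines the differences of the same gene had little in common. Of 103 members measured in both lines, 33 were higher in both knockouts, 21 lower in both, 31 higher in E14 only and 18 higher in JB1 only. Spearman's rho of the differences was 0.13 over these 103 genes, and 0.21 over 11787 other genes. Genes of 1 library share its depth and scaling, so these are descriptions. After H2-T23, the members with the largest smaller difference of the same sign were BC051226 (0.634 against 1.78 RPM in E14, 1.16 against 2.05 RPM in JB1), H2-DMa, Nrm and Wdr46, followed by Tap1, H2-Q6 and Vars. Nrm, a protein of the inner nuclear membrane, was 5.57 against 7.45 RPM in E14 and 9.51 against 16.1 RPM in JB1. Wdr46, a nucleolar protein, was 29.8 against 38.4 RPM in E14 and 51.1 against 69.4 RPM in JB1. Vars, the valyl-tRNA synthetase, was 121 against 151 RPM in E14 and 176 against 234 RPM in JB1.

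**Figure D4:**
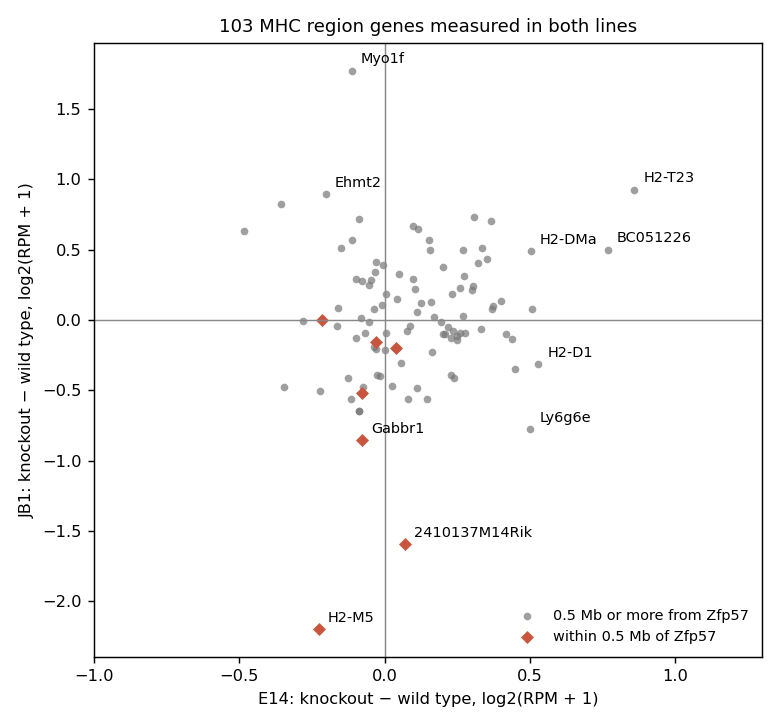
Difference in JB1 (vertical) against difference in E14 (horizontal), knockout minus wild type on log2(RPM + 1), for the 103 members measured in both lines. Diamonds are genes within 0.5 Mb of Zfp57. H2-T23 lies farthest to the right (0.86 in E14 and 0.93 in JB1), and H2-M5 (−0.23 and −2.19) and 2410137M14Rik (0.07 and −1.59) lie lowest.

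The wild-type levels of the lines come from tables that were scaled separately, and are set side by side here without a test. Of 121 members at 1 RPM or more in either wild type, 107 (88.4%) were higher in JB1, with a median of 0.79 on the log2(RPM + 1) scale. Over all 13003 such genes 77.9% were higher, with a median of 0.49. The listed genes held 53.1% of the scaling total in E14 wild type and 68.6% in JB1 wild type. Their levels as a whole are therefore higher in JB1 on this scale. Among the genes near Zfp57, Gabbr1 (24.5 RPM in E14 wild type, 103 RPM in JB1 wild type) and Rnf39 (0.357 RPM and 2.50 RPM) were higher in JB1 by more than both medians. So were Znrd1as (4.24 RPM and 15.9 RPM) and Trim26 (18.2 RPM and 43.1 RPM), which differed little by genotype in JB1. Znrd1 (0.66) lay between the medians. Ppp1r11 (0.33), H2-M5 (0.46) and 2410137M14Rik (−0.26), the last 2 strongly lower in the JB1 knockout, lay below both. Rnf5, a ubiquitin ligase of the class III interval, was 3.45 RPM in E14 and 22.7 RPM in JB1, and 2310061I04Rik was 2.08 RPM and 17.6 RPM. The members lower in JB1 by 1 or more on that scale were H2-Q6 and Myo1f. In the knockouts H2-Q6 kept the same order of lines (45.1 RPM in E14, 10.5 RPM in JB1), and Myo1f did not (4.60 RPM and 6.32 RPM).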

How the data were processed

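Per the labels' protocols, libraries were made with a stranded mRNA kit, and build mm9 with TopHat2 2.0.8b, cutadapt and CASAVA 1.8.2 stands in the submitters' processing notes. The authors deposited 1 table per line with log2 values per gene. The sources used here do not give the counter, annotation, strand setting or scaling total. For 100% of genes with reads, 0.9 × 2^(value − lowest value) was whole within a relative tolerance of 0.0001. The values are therefore log2 of scaled reads, and reads could be recovered. The unit was taken as log2 RPM, which whole numbers do not show. With it, scaling totals were 50478922, 70691473, 69204114 and 96996280 reads. No value column was left unused (0).

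RPM, ratios with exact conditional binomial 95% intervals and log2(RPM + 1) differences were computed with Python 3.11.15 and scipy 1.17.1. limma 3.58.1 in R 4.3.3 (eBayes with a trend, Benjamini-Hochberg adjustment over all genes) was tested on simulated data. Members and lists were chosen with earlier results of these data known. Named genes were the classical class I and antigen processing genes, the 10 largest differences per line, genes within 0.5 Mb of Zfp57, the 3 highest per class, the 4 highest per outside list and the 8 largest shared differences. Genes called by limma were also to be named, and there were none. Some items that the rule or the marker lists hold are not reported here. Rnf5, 2310061I04Rik, Mog, B2m, Cd74, Psmb10, Psme2, Irf9, Bst2, Ifi35, Klf4, Utf1, Notch4, Tnf, Oas1a, Isg15, Ifit3, H2-Q2, H2-Q7, H2-Q8, H2-Q10 and A930015D03Rik were added after their values were seen. Promoter windows came from the RefSeq table of GRCm38.p6, which matched 183 of 267 symbols. A count model was foreseen for count tables and was not used on log2 values.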

Additional observations from a re-analysis of the deposited data

Results flagged for a closer look

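Among the named members measured in both lines, 4 lay on opposite sides in the lines by at least 0.3 on the log2(RPM + 1) scale in each, with counting intervals that exclude no difference. The JB1 difference minus the E14 difference was −0.84 for H2-D1, −1.27 for Ly6g6e, 1.12 for Col11a2 and −0.80 for Stk19. Col11a2, a cartilage collagen gene, was 1.803 against 1.00 RPM (wild type against knockout) in E14 and 0.419 against 1.21 RPM in JB1. Stk19 was 4.71 against 6.79 RPM in E14 and 19.5 against 15.1 RPM in JB1. Each line gives 1 difference, so the difference between the lines was not tested.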

How the results depend on the processing

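With a pseudocount of 0.25 the members at least 2-fold apart were 1 in E14 (in place of 0) and 11 in JB1 (in place of 5). By ratio of RPM with no pseudocount (added after seeing the data) they were 3 in E14 and 16 in JB1. In JB1 they were 1 with a pseudocount of 5 and 2 with at least 5 RPM. With at least 5 RPM in JB1, 100% of the 6 measured members under 0.5 Mb were lower, 0% of the 1 antigen processing gene and 100% of the 2 complement and class III genes. These moves follow from the construction of each alternative (another added constant, or fewer genes). Without a filter, without near-identical families, centred on the median of all genes (a shift of 0.02 in E14 and 0.01 in JB1) and without the second of near-equal rows (added after seeing the data), both counts stayed within 1.5 times, and the other shares by distance and class stayed within their counting intervals, which are wide: at 0.5 to 1 Mb in JB1, 25% lower became 62.5% when centred. Of the values of single named genes, 223 moved little and 19 moved further. The sign turned only for Mdc1 in E14, which was near 0 (0.0038, and −0.018 when centred on the median of all genes). limma called 0 members under each of its 7 alternatives, with 0 members (no cell line term) to 18 (no filter on low values) at an unadjusted p under 0.05. The cell line term pairs the genotypes within each line. No paired analysis beyond it was possible because the labels give no replicate numbers. Depth limits genes below 1 RPM, a level worth 50.5 reads in E14 wild type and 97.0 reads in JB1 knockout.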

Other observations

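Some rows of the interval share reads. Of the members, 91 symbols overlap another member, in 72 pairs, 21 of them on the same strand. In 5 pairs the reads of both rows were within 10% of each other in all 4 libraries: Gm20427 with Slc39a7, RP23-115O3.9 with Gpank1, A930015D03Rik with RP24-443D19.4, H2-T9 with Gm7030, and Gm8909 with RP23-108F2.6. Slc39a7, a zinc transporter, was 52.1 against 55.3 RPM (wild type against knockout) in E14 and 64.8 against 63.0 RPM in JB1, and Gm20427, which overlaps it on the same strand, was 53.1 against 56.05 RPM and 66.1 against 62.4 RPM. Gm8909 was 0.416 against 0.368 RPM in E14 and 4.74 against 4.77 RPM in JB1, so it stood apart by line and not by genotype.

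Gm20546 had the lowest difference of the members in E14 (−0.51), at 1.29 against 0.608 RPM in E14, and was 0.405 against 0.371 RPM in JB1. Gm10501 was 0.594 against 1.16 RPM in E14 and 1.88 against 1.62 RPM in JB1.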
